A study of Mus musculus with 6 samples.

Results

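The splicing factor and RNA helicase genes described here are those whose symbol begins with Hnrnp, Srsf, Srrm, Snrp, Sf3a, Sf3b, U2af, Prpf, Rbm, Ptbp, Ddx or Dhx in the site tables. They held 216 of the 5538 listed G-quadruplex sites, in 66 genes, where the whole list has 2643 gene entries. A site is a stretch of RNA with several runs of guanines together with the position at which reverse transcriptase stops behind it. The material was a clonal mouse embryonic stem cell line (129S1/CastEiJ x 129S1), labelled WT, that carries TsixTST on 1 chromosome and a normal allele on the other. Cells were sampled undifferentiated (day 0) and after 3 and 7 days as embryoid bodies, in 2 samples each. Day 0 cells grew on inactivated feeder cells with leukemia inhibitory factor (LIF), and differentiating cells were depleted of feeders and had no LIF. They floated for the first 3 days and then grew on gelatin. All 6 samples were exposed to 4% dimethyl sulfate (DMS) for 7 min, and polyadenylated RNA attached to chromatin was cut into pieces of 60 to 80 nt. Each was then reverse transcribed once with K+ and once with Li+. A further pair of tables recorded under the day 7 samples is named in vitro. How that RNA was prepared is known only from the name and the design text.

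A G-quadruplex stacks planar quartets of guanines, which K+ holds together far better than Li+, and a folded one blocks reverse transcriptase. DMS methylates a position of guanine that the quartet uses, so that an unfolded motif is marked in the cell and can no longer fold in the tube, whereas a folded one is protected. The proteins encoded here bind, splice and unwind RNA. The hnRNPs and PTB proteins coat nascent transcripts, SR proteins recruit the spliceosome, and Snrp, Sf3, U2af and Prpf genes encode parts of it. The DEAD-box (Ddx) and DEAH-box (Dhx) helicases open RNA structures, Dhx9 G-quadruplexes among them. The glycine-rich tails of many hnRNPs and of Dhx9 are encoded by GGN codons, so their coding sequence is rich in pairs of guanines.

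The motifs on which the results turn are given here 5′ to 3′ as DNA letters, on the transcribed strand, with every run of 2 or more G in capitals. The Dhx9, Hnrnpa2b1, Hnrnph1 and Hnrnpa3 motifs lie in coding sequence and show pairs of G spaced like GGN codons. The reading frame was not determined. On GRCm38, the 4 Dhx9 motifs A to D are at chr1:153456076-153456097, chr1:153456249-153456275, chr1:153456308-153456332 and chr1:153456646-153456677 on the minus strand. The Hnrnpa2b1 motifs are at chr6:51463457-51463485, the most read of all member sites, and chr6:51464487-51464518 on the minus strand. The Hnrnph1 motif is at chr11:50381496-50381524 and the only Hnrnpa3 motif at chr2:75662892-75662920, both on the plus strand.
Dhx9, motif A: gaGGaGGaGGGGGtGGtGGtGG
Dhx9, motif B: GGGaattatGGtGGtGGcGGGGGaGGG
Dhx9, motif C: GGGGGaGGGGGttatGGtGGtGGGG
Dhx9, motif D: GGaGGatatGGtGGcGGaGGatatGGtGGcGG
Hnrnpa2b1, most read: GGtcctGGaGGaagtGGaGGaagtGGtGG
Hnrnpa2b1, second: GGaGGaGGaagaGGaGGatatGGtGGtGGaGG
Hnrnph1: GGacttccaGGGGaGGagtacGGGGGaGG
Hnrnpa3: GGtgatGGtGGatataatGGatttGGaGG

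The motifs below are from untranslated regions and spliceosomal members. They are shown because their values stand at the ends of the range or because 1 motif lies inside another. The Ddx17 pair is at chr15:79529661-79529676 and chr15:79529653-79529676 (minus strand, 3′ UTR), and Hnrnpul1 at chr7:25721413-25721437 (minus strand, 3′ UTR). The Snrpd3 pair begins at the same base of the coding sequence, at chr10:75535272-75535291 and chr10:75535272-75535298 (plus strand). The Srrm2 motifs overlap at chr17:23824447-23824474 and chr17:23824452-23824480 (plus strand, 3′ UTR). Ptbp1 (chr10:79864317-79864333) and Ddx6 (chr9:44639731-44639747) lie on the plus strand in 3′ UTRs.
Ddx17, short: GGGaGGGtGGGtaGGG
Ddx17, longer: GGGaGGGtGGGtaGGGaaGGaGGG
Hnrnpul1: GGGtgaaGGGaaGGtGGGGGtGGGG
Snrpd3, short: GGGagaGGacgtGGGatGGG
Snrpd3, longer: GGGagaGGacgtGGGatGGGacgtGGG
Srrm2, first: GGagtGGGaGGGaGGGagtctaGGGaGG
Srrm2, second: GGGaGGGaGGGagtctaGGGaGGGaGGGG
Ptbp1: GGGGaaGGGGGGGGGGG
Ddx6: GGGGtGGGaGGGGaGGG

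The sites were spread unevenly over the genes. Dhx9 held 22 of the 216, Hnrnpa2b1 and Hnrnpul2 14 each, and Hnrnpl and Srrm2 11 each, whereas 30 genes had a single site and 14 had 5 or more. Members are not independent, because 109 of the 216 motifs overlap another and the whole set forms 149 separate clusters, so neighbours share reads. By family, the Hnrnp genes held 89 sites in 17 genes, the Ddx genes 31 in 10, the Dhx genes 29 in 5, the Rbm genes 15 in 10 and the Prpf genes 10 in 6. The Srsf genes held 11 in 5, Srrm2 alone 11, the Sf3 genes 7 in 4, the Snrp genes 7 in 5, the Ptbp genes 4 in 2 and U2af2 2. Of the sites, 15 have a second gene in their entry, among them 10 of Hnrnpul2 and the only one of Snrpn, and reads there cannot be assigned to 1 gene.

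Member sites lay in coding sequence more often than the list as a whole. Coding sequence was the only annotation of 101 members (46.8%), against 1342 of all 5538 sites (24.2%). A 3′ UTR was annotated for 69 members (31.9%), against 57.1% of all sites. Dhx9 and Hnrnpa2b1 account for part of this, with 33 of their 36 sites in coding sequence, and the 180 sites of the other genes stood at 37.8%. Counted by gene, 35 of 66 members (53.0%) had a site in coding sequence alone, against 795 of 2643 entries (30.1%).

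The letters of the sites differed in the same direction. They were counted over the motif and the bases listed after it, as a rule 10. N can be any base, so a long run of G also counts as a row of GGN. At least 3 GGN triplets in a row were found on the transcribed strand of 115 members (53.2%) and of 42.5% of all sites. Among sites in coding sequence alone these shares were 62.4% and 48.7%, and among members without Dhx9 and Hnrnpa2b1 the share was 45.6%. All 22 Dhx9 sites have such a row, 3 to 7 triplets long. A classical G-quadruplex needs 4 runs of at least 3 G. Over the same letters 163 members (75.5%) have fewer, against 63.2% of all sites. The deposited class "canonical" covers 19 members (8.80%) and 15.7% of all sites, whereas "two-quartet" covers 54 members (25.0%) and 19.2%. A motif was assembled across an exon junction in 17 members (7.87%), in Hnrnph1, Hnrnph3, Ddx3x and Ddx17 for example, and in 2.73% of all sites. Among sites in coding sequence alone the junction shares were close, 8.91% of members and 7.45% of all. There, fewer than 4 runs of 3 G were found in 90.1% and 80.7%. The class "two-quartet" covered 31.7% and 23.0% of them, and "canonical" 0.990% and 5.29%. These are descriptions of the list, without a test.

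The stop share is the percentage of reads covering a site that end at its stop position. All 216 members had a higher share in K+ than in Li+ in both in vitro tables, with a lowest ratio of 1.25. The same holds for all 5538 listed sites, and the direction is given as a description, with no test. Over the member sites, the pooled in vitro share was 42.0% and 42.6% in K+ against 7.15% and 6.48% in Li+, in replicates 1 and 2. These rest on 65128 and 93760 K+ reads and on 41192 and 19698 Li+ reads, in which overlapping sites count the same read more than once. The median member stood at 43.2% in K+ (range 11.4% to 93.4%), below the median of 51.4% over all sites. It was 32.0% over the 36 sites of Dhx9 and Hnrnpa2b1 and 45.5% over the other 180. Over the 57 members with 100 or more reads in both cations of both tables it was 33.7%. No value of that depth is given for all sites.

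In cells the shares were low in either cation. Pooled over member sites, 2.52% and 2.30% of K+ reads stopped on day 0, against 3.10% and 3.42% of Li+ reads. On day 3 the K+ share was 6.46% in replicate 1 and 2.96% in replicate 2, against 2.54% and 2.31% in Li+. On day 7 it was 3.95% and 2.64%, against 3.11% and 3.44%. Day 3 replicate 1 therefore stood apart in K+, and it also had the fewest K+ reads over member sites, 6065 where the others had 9055 to 63012. Li+ libraries had 7842 to 110074. Coverage below 6 is never listed, and a 0 can therefore hide up to 5 reads. Intervals and this limit cover counting error only.

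**Figure D1:**
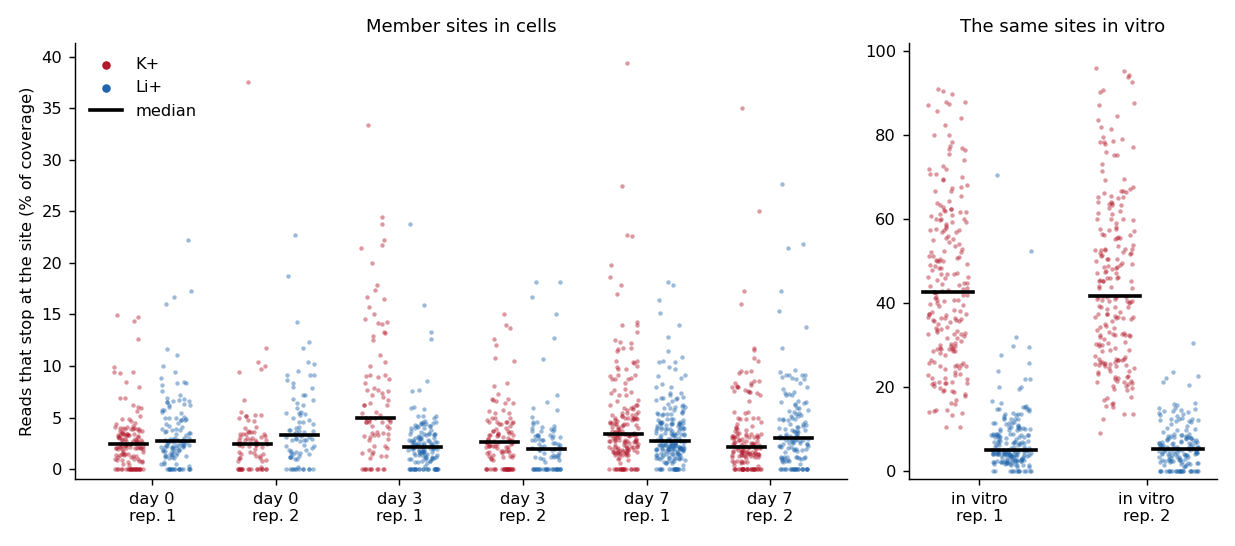
Share of reads that stop at each member site, in percent of coverage, in K+ (red) and Li+ (blue), for the 6 samples of cells (left) and the 2 in vitro tables (right, with its own scale). Points are sites with 20 or more reads in that library and black bars are medians. The in vitro K+ medians are 42.6% and 41.6%, and in cells the highest K+ median is 5.00%, in day 3 replicate 1.

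The letters of the motif and of the bases after it went together loosely with the in vitro share among members. Members with at least 4 runs of 3 G had a median in vitro K+ share of 52.0%, and those with fewer 39.2%, whereas over all sites the medians were 52.2% and 51.0%. With a row of GGN triplets the median was 40.8%, and without one 45.4%. Members in coding sequence alone had a median of 38.8%, against 49.2% for all such sites, and members in a 3′ UTR alone 52.3%. Among families with 5 or more sites the median was lowest for Dhx (33.3%) and Hnrnp (38.3%) and highest for Sf3 (55.6%) and Prpf (62.5%). The Dhx value is mostly that of Dhx9, with 22 of the 29 sites and a median of 29.2%. Dhx15, Dhx38, Dhx16 and Dhx29, with 3, 2, 1 and 1 sites, had medians of 44.05%, 53.4%, 54.6% and 89.2%.

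The 10 members with the highest in vitro K+ share, among those with at least 100 K+ reads in both tables, came from 10 genes. The short motif of Ddx17, a DEAD-box helicase that also acts in splicing, led with 93.4% ± 3.57 (SD, n = 2), from 90.9% of 875 reads (95% Clopper-Pearson interval 88.8% to 92.7%) and 95.9% of 1685 reads (94.9% to 96.8%). Hnrnpul1 followed with 90.3% ± 3.27, from 88.0% and 92.6%. Ddx6, a helicase of mRNA decay and storage, stood at 87.4% ± 0.54 and the SR protein gene Srsf10 at 87.4% ± 0.16. Hnrnpul1, Ddx6 and Srsf10 differ by less than the SD of Hnrnpul1. Snrpd3, a core protein of the spliceosomal snRNPs, gave 82.2% ± 3.17 and Hnrnpk 80.5% ± 2.76. Sf3a3, Prpf38b, Rbm15b and Hnrnpr lay between 73.9% and 76.9%. In Li+ Ddx6 kept 70.5% of 44 reads and 60.0% of 10 reads, the highest mean Li+ share of any member, where the other 9 had means from 7.76% to 22.9%.

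Nested motifs show how the share depends on which stop is counted. The short Ddx17 motif makes up the first 16 bases of the longer one. The longer one stopped 26.4% and 17.6% of in vitro K+ reads, where the short one stopped 90.9% and 95.9%. Coverage was the higher one at the longer motif, with 1191 and 2086 reads against 875 and 1685 at the short one. The enzyme travels toward the 5′ end of the RNA and meets the end of the longer motif first. In Snrpd3 the short motif stopped 80.0% and 84.4% of 1102 and 1220 reads, and the longer one 36.1% and 32.0% of 3429 and 3613. Another Snrpd3 site, in the 3′ UTR at chr10:75535372-75535391, stopped 50.0% and 51.8%. In Srrm2, which encodes a large spliceosomal scaffold, the first motif stopped 64.4% and 64.1% and the second, which ends further toward the 3′ end, 36.1% and 41.6%.

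The 22 Dhx9 sites lie in 626 bases of coding sequence, chr1:153456076-153456701, in 9 clusters of overlapping motifs. Their in vitro K+ shares ran from 15.7% to 64.9% with a median of 29.2%, and their Li+ shares from 2.17% to 10.7%. Motif B gave 63.3% and 66.4%, and motif A 63.8% and 65.3%. A second stop position listed for motif A gave 22.9% and 23.2%, and motif D 14.6% and 16.8%. Sites with high and with low shares lie side by side, and in these examples motifs A and B differ by less than their replicates and the others by more. In cells on day 7 the same sites had mean K+ shares of at most 7.63% (median 2.89%) and mean Li+ shares of at most 5.52% (median 2.69%), so that the ranges of the cations overlap.

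**Figure D2:**
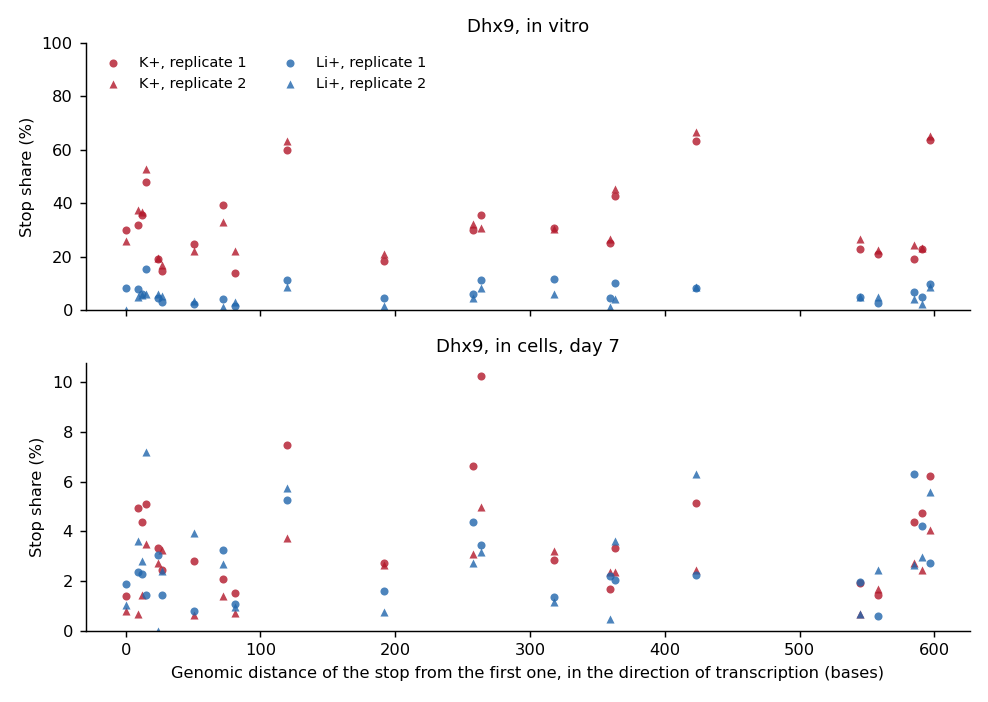
Stop shares, in percent, at the 22 Dhx9 sites against genomic distance in bases from the first stop in the direction of transcription, in vitro (top) and in cells on day 7 (bottom, on a smaller scale). Each point is 1 table, with colour for the cation and shape for the replicate. In vitro K+ lies above Li+ at every site, with means up to 64.9%, whereas on day 7 K+ and Li+ points mix.

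Hnrnpa2b1, whose protein has a glycine-rich tail that drives assembly of RNA granules, had 14 sites with in vitro K+ shares from 11.4% to 77.1% (median 37.2%). Its most read motif, built of pairs of G alone, stopped 14.3% of 2770 and 17.5% of 3011 K+ reads and 4.39% and 3.80% of Li+ reads. On day 7 the same motif stopped 2.57% of 10321 and 1.26% of 4199 K+ reads, against 2.77% and 2.11% in Li+. Depth is not the limit at this site, and the K+ share stood below the Li+ share in both day 7 samples. The second Hnrnpa2b1 motif stopped 60.2% of in vitro K+ reads on average and 3.26% on day 7.

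The in vitro and day 7 tables were compared through the log2 odds ratio of a stop in K+ against Li+, at the 136 members with 20 or more reads in each cation of all 4 tables. limma called 121 members, all with a larger ratio in vitro, out of 2265 called among 2648 sites (85.5%), also all larger. The median difference was 2.94 for members and 3.16 for all sites on the log2 scale. The members' share of calls, 89.0%, is near that background. Every listed site has the higher K+ share in vitro, and the list appears to have been chosen on the in vitro tables. A value that chose the sites cannot be tested on them. The calls and adjusted p-values of this comparison therefore describe the size of the difference and do not test its direction.

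The smallest adjusted p belonged to the short Ddx17 motif, with a difference of 6.49 ± 0.59 (SE, adjusted p = 3.42e-25, limma). It stopped 9.03% and 5.45% of K+ reads on day 7, against 5.72% and 21.9% in Li+. The short Snrpd3 motif differed by 5.34 ± 0.52 and the Hnrnph1 motif by 5.52 ± 0.79. Snrpd3 stopped 4.95% and 1.95% of day 7 K+ reads, against 2.99% and 2.51% in Li+. At the Ddx17 and Snrpd3 motifs the in vitro K+ shares are high and the day 7 shares of the cations overlap. The 6 Hnrnph1 sites had mean in vitro K+ shares of at most 53.3%.

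Of the 136, 15 were not called, and the longer Ddx17 motif was the only one below 0, at -0.65 ± 0.68 (adjusted p = 0.353, limma). It stopped 22.6% of 155 and 10.5% of 95 day 7 K+ reads, and 3.95% and 2.86% of Li+ reads. Here K+ was above Li+ in both day 7 samples and the in vitro K+ share was about as high as on day 7. The others were 4 Dhx9 sites, 3 Srrm2 sites, and 1 site each of Ddx6, Dhx15, Hnrnpa2b1, Hnrnpd, Hnrnpl, Hnrnpul2 and Sf3a3. The Ddx6 site, the most read one of that gene, differed by 0.18 ± 0.61 and the first Srrm2 motif by 0.94 ± 0.60. The Ddx6 site among the 10 highest in vitro had too few Li+ reads to be tested here. Srrm2 stopped 19.8% and 8.15% of day 7 K+ reads, against 4.89% and 2.83% in Li+.

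Because nearly every site moved one way, each table was also centred on its median site, a setting chosen after seeing the data. The members' median difference then became -0.27, where that of all sites was -0.06, and 17 members were called (12.5%), near the 336 called over all sites (12.7%). The short Ddx17 motif (3.20), Hnrnph1 (2.37) and the short Snrpd3 motif (2.12) stood above the centre. The longer Ddx17 motif (-3.85), the most read Ddx6 site (-3.05) and both printed Srrm2 motifs (-2.24 and -1.37) were among 14 below it. Others below it included sites of Dhx9, Dhx15, Hnrnpa1, Hnrnpa2b1, Sf3a3, Snrpd1 and Snrpf. The motifs of the Ddx17 pair thus lie on opposite sides under this setting.

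Hnrnpul1 was too shallow for that comparison. On day 7 it stopped 39.4% of 33 and 35.0% of 20 K+ reads, against 16.4% of 55 and 17.6% of 17 Li+ reads. Hnrnpk stopped 27.5% and 9.40% of day 7 K+ reads and 17.8% and 27.6% of Li+ reads, so its cations do not order the same way in the replicates. Across the 136 members, Spearman's rho was 0.413 between in vitro and day 7 K+ shares and 0.683 between day 7 K+ and Li+ shares. It was 0.621 between the day 7 replicates in K+ and 0.902 between the in vitro replicates. These describe sites that share libraries, depth and overlapping reads.

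**Figure D3:**
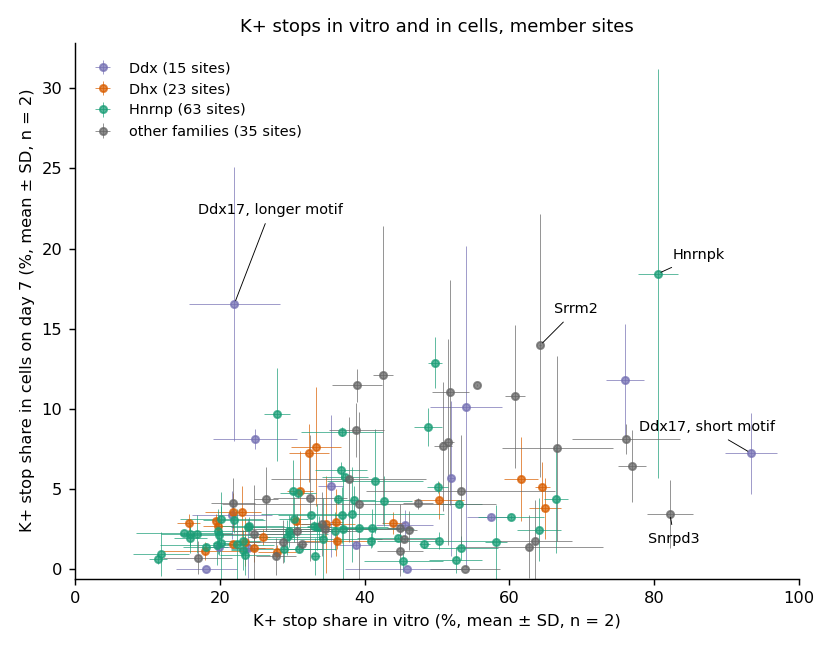
Mean K+ stop share in cells on day 7 against the mean in vitro, both in percent, at the 136 members with enough reads, coloured by family. Lines are SDs over 2 tables. Most sites lie below 10% on day 7 at any in vitro share. The short Ddx17 motif (93.4% in vitro) and the longer one around it are marked.

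Whether K+ raised stops within a day was tested at 847 sites with 20 reads in each cation of all 6 samples, 66 of them members in 22 genes. On day 0 limma called 0 sites (0%), with 41 sites at an unadjusted p under 0.05, 1 of them a member, an Hnrnpa2b1 site at -1.54 ± 0.65. On day 7 it also called 0 (0%), with 85 at an unadjusted p under 0.05, 4 of them members. On day 3 it called 60 (7.08%), 5 of them members. A share of 5 in 66 is close to that background.

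The 5 sites called on day 3 were the short Snrpd3 motif, the second Srrm2 motif and Dhx9 motifs A, C and D. The short Snrpd3 motif stopped 14.2% and 3.29% of K+ reads on day 3, against 2.71% and 1.21% in Li+, with a log2 odds ratio of 2.21 ± 0.54 (adjusted p = 0.0280, limma). The second Srrm2 motif stopped 14.1% of 128 and 6.64% of 286 K+ reads, against 2.10% and 0.69% in Li+ (2.88 ± 0.75, adjusted p = 0.0300, limma). Dhx9 motif A stopped 24.4% of 45 and 4.96% of 121 K+ reads, against 3.52% and 0% in Li+ (3.05 ± 0.80, adjusted p = 0.0300, limma). Motif C gave 2.34 ± 0.72 and motif D 3.65 ± 1.07. K+ lay above Li+ in both day 3 samples at all 5, and each K+ share was higher in replicate 1. Without day 3 replicate 1 the ratios were 1.23 ± 1.02 (SE) for Snrpd3 and 2.80 ± 1.71 for Srrm2. Motif A then stood at 2.72 ± 2.28, motif C at 1.28 ± 0.96 and motif D at 1.70 ± 1.92. Replicate 2 alone stood for day 3 in that fit, and the SEs are large beside the ratios. Without day 3 replicate 2 the ratios were 2.56 ± 0.61, 2.90 ± 0.86, 3.10 ± 0.86, 3.48 ± 0.99 and 4.44 ± 1.26 in the same order. With each sample centred on its median site, 0 members were called.

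The change from day 0 to day 3 was called at 55 sites (6.49%) and at 1 member, the second Srrm2 motif. Its log2 odds ratio was 0.42 and -2.69 on day 0 and 2.90 and 2.80 on day 3, a change of 3.55 ± 0.97 (adjusted p = 0.0414, limma), and 1.87 and -0.40 on day 7. The day 3 values lie above all others, and the day 0 samples lie far apart. Without day 0 replicate 2 the change was 2.46 and without day 3 replicate 1 it was 3.45, and neither was called. The change at this motif was 5.57 without day 0 replicate 1, 3.55 without day 3 replicate 2 and 3.61 without either day 7 sample. For day 7 against day 0 and day 7 against day 3, limma called 0 sites (0% and 0%), with 87 and 78 at an unadjusted p under 0.05, of which 1 and 9 were members. The smallest p between days 7 and 0 was that of the first Srrm2 motif (2.33 ± 0.79, adjusted p = 0.290, limma). Between days 7 and 3 it was that of an Hnrnpd site (-2.64 ± 0.93, adjusted p = 0.455, limma).

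The whole distribution moved between samples. The median log2 odds ratio of the 66 members was -0.10 and -0.30 on day 0, 1.19 and 0.14 on day 3, then 0.36 and -0.38 on day 7, and that of all 847 sites was -0.16, -0.50, 1.31, 0.33, 0.49 and -0.12. The members follow the list in every sample, and day 3 replicate 1 stands highest in both. K+ lay above Li+ in both samples at 10 of 66 members on day 0 (15.2%; 14.8% of all sites), 34 on day 3 (51.5%; 49.4%) and 18 on day 7 (27.3%; 35.1%). It did so in all 6 samples at 11 of the 847 sites (1.3%), and at 0 members. The part of the shallow day 3 replicate 1 K+ library in these values was not tested beyond leaving it out.

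**Figure D4:**
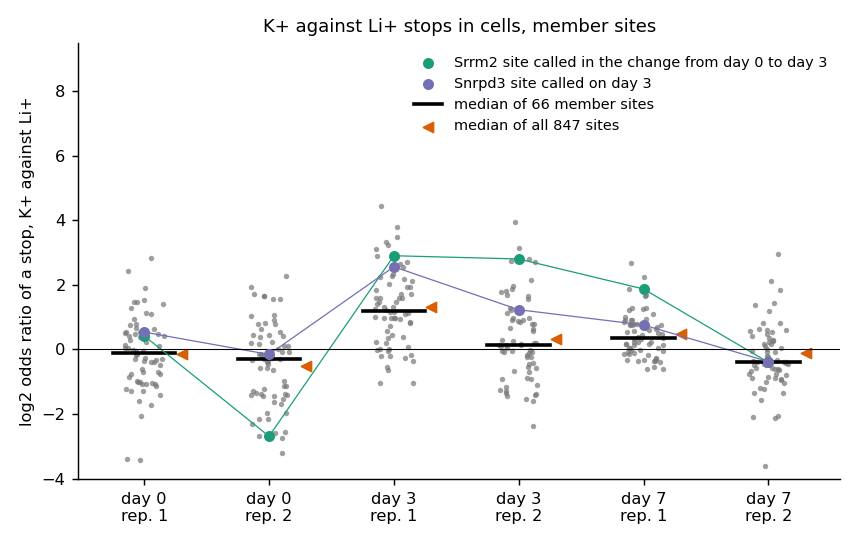
Log2 odds ratio of a stop in K+ against Li+ in each of the 6 samples of cells, 1 grey point per member site (66). Black bars are member medians, orange triangles the medians of all 847 sites, and coloured lines follow the second Srrm2 motif and the short Snrpd3 motif. The member medians run from -0.38 to 1.19 and lie near the medians of all sites.

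Stops themselves were also compared between days, as K+ stop counts at 327 sites, 27 of them members in 11 genes. limma-voom called 2 sites for day 3 against day 0 (0.612%), 53 for day 7 against day 0 (16.2%) and 21 for day 7 against day 3 (6.42%). None was a member. An unadjusted p under 0.05 was found at 45, 97 and 58 of all 327 sites, and at 0, 0 and 1 members. The latter was a Hnrnpa2b1 site (chr6:51464448-51464468), at -1.24 ± 0.52 between days 7 and 3 (adjusted p = 0.238, limma). The smallest p between days 3 and 0 was that of an Hnrnpa1 site (1.36 ± 0.62, adjusted p = 0.316, limma), and between days 7 and 0 that of the short Snrpd3 motif (-1.01 ± 0.50, adjusted p = 0.219, limma). Members' differences ran from -1.25 to 1.51 over the 3 comparisons. Under scaling by total counts alone, 1, 3 and 0 of the 27 members were called, beside 43, 93 and 30 of all sites (13.1%, 28.4% and 9.17%). Over all sites the calls between days 0 and 7 split into 33 higher and 20 lower, and under total counts alone into 89 and 4, with the median of all sites at 0.16 and 1.26. The direction of stop counts over the days therefore rests on the scaling.

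Reads of both cations, summed at the most read site of each gene entry, were used as a measure of its RNA in the chromatin fraction, and scaled by library size (CPM, the count per 1e6 reads of the library). Fewer cells making an RNA and less RNA per cell cannot be told apart in these bulk samples. Whether the replicates are separate cultures is not in the labels, and p-values then measure only how far these samples spread, which may be technical. Here an exact permutation test of 2 samples against 2 could not go below 0.333. Of 2389 entries tested, 63 were of members, in 62 genes. Prpf18, Rbm19, Rbm26 and Snrpe were too shallow. Libraries held 482343 to 2964109 reads in this fit.

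Between days 0 and 3 limma-voom called 2 entries (0.0837%) and 0 members. An unadjusted p under 0.05 was found at 205 of all 2389 entries and at 5 members. They were Hnrnpa1 (1.66 ± 0.38, adjusted p = 0.301, limma), Ptbp3, Rbm3, Ddx6 and Prpf38b. Hnrnpa1 had 155 and 107 CPM on day 0, 507 and 361 on day 3, then 225 and 358 on day 7. Its day 3 samples lie above both day 0 samples, but the difference did not pass the adjustment. The median difference was 0.21 over members and 0.16 over all entries on the log2 scale. Without day 0 replicate 1 these medians were 0.41 and 0.27, and without day 0 replicate 2 they were 0.17 and -0.11.

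Between days 0 and 7, 439 entries were called (18.4%), 364 higher and 75 lower, with a median of 0.57 over all entries and 0.55 over members on the log2 scale. The estimates and calls that follow are differences from 0 after scaling, and that shift was not subtracted from them. Of the 63 member entries, 6 were called, 4 higher and 2 lower. Under total counts alone the split was 429 to 17 over all entries, with a median of 1.01, and 5 to 0 over members.

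Among hnRNP genes, Hnrnph1 and Hnrnpa3 were called higher. Hnrnph1, whose protein binds runs of G and regulates exon choice, had 169 and 125 CPM on day 0, 235 and 319 on day 3, then 662 and 382 on day 7 (1.74 ± 0.38, adjusted p = 0.0189, limma). The day 7 samples lie above all others. Hnrnpa3, a relative of Hnrnpa2b1, was listed at 0 in all day 0 and day 3 samples and had 18.9 and 13.2 CPM on day 7 (4.95 ± 0.75, adjusted p = 0.00440, limma). These are 71 and 18 reads. With each listed 0 put at its limit, 10 reads per library over both cations, the mean of day 7 was at least 1.196-fold higher than that of day 0 and at least 1.046-fold higher than that of day 3. The limit of replicate 2, 19.9 CPM on day 0 and 19.8 on day 3, is above both day 7 values, so no gap between the days is shown at this depth. It was also called between days 3 and 7 (4.63 ± 0.75).

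Ddx6 and Snrpn were called higher as well. Ddx6 had 65.8 and 35.7 CPM on day 0, 135 and 143 on day 3, then 181 and 152 on day 7 (1.44 ± 0.39, adjusted p = 0.0411, limma). Snrpn, an imprinted gene for an snRNP protein of brain, had 65.1 and 55.6, then 103 and 105, then 143 and 149 CPM (1.19 ± 0.34, adjusted p = 0.0464, limma). In both genes the days do not overlap. The Snrpn site is shared with a second gene of its entry. With the replicate number as a block neither was called (adjusted p = 0.0851 for Ddx6 and 0.114 for Snrpn, limma). The Snrpn call was also lost without the filter on low counts, without ribosomal and mitochondrial sites and with reads summed per gene, at adjusted p from 0.0532 to 0.0601 (limma). Ddx6 stood at 2.18 without day 0 replicate 1.

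Ptbp1 and Ddx23 fell. Ptbp1, a repressor of many exons that is high in stem cells and neural progenitors and gives way to Ptbp2 in neurons, had 2053 and 3963 CPM on day 0, 2065 and 2584 on day 3, then 986 and 1155 on day 7 (-1.41 ± 0.35, adjusted p = 0.0318, limma). Ddx23, a helicase of the U5 snRNP, had 169 and 224 CPM, then 122 and 107, then 82.7 and 77.2 (-1.25 ± 0.29, adjusted p = 0.0256, limma). Both lie lower on day 7 than in any earlier sample. Under total counts alone they stood at -0.91 and -0.78 and were not called. With reads summed over the sites of the gene, Ddx23 stood at -0.69 and was not called (adjusted p = 0.109, limma), and its call was also lost with the replicate number as a block (adjusted p = 0.0662, limma).

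Between days 3 and 7, 302 entries were called (12.6%), 257 higher and 45 lower, with a median of 0.33 over all entries and 0.24 over members, and 2 members were called, both higher. Beside Hnrnpa3 this was Ptbp3, a paralogue of Ptbp1, with 8.40 and 23.8 CPM on day 0, listed at 0 in both day 3 samples and 63.3 and 50.0 on day 7 (6.30 ± 0.65, adjusted p = 0.00305, limma). With each listed 0 at its limit of 10 reads, the mean of day 7 was at least 3.689-fold higher than that of day 3. Ptbp1 had -1.11 ± 0.35 here (adjusted p = 0.0894, limma).

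These calls depend on single libraries. Members called between days 0 and 7 numbered 19 (30.2%) without day 0 replicate 1, when 39.4% of all entries were called, and 1 without day 0 replicate 2 (9.79% of all). They numbered 2 without day 3 replicate 1 (16.3% of all) and 1 without day 3 replicate 2 (10.8% of all). Without day 7 replicate 1 or replicate 2 there were 0, with 5 and 11 entries called over the list. Those called between days 3 and 7 numbered 4 without either day 0 sample (15.2% and 13.2% of all entries) and 6 without day 3 replicate 1 (17.5% of all). There were 0 without day 3 replicate 2 or either day 7 sample, with 0, 5 and 17 entries called over the list. In each of these fits the members' share lay at or below that of all entries. Each of the 7 genes called kept its direction in every one of these fits that tested it.

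**Figure D5:**
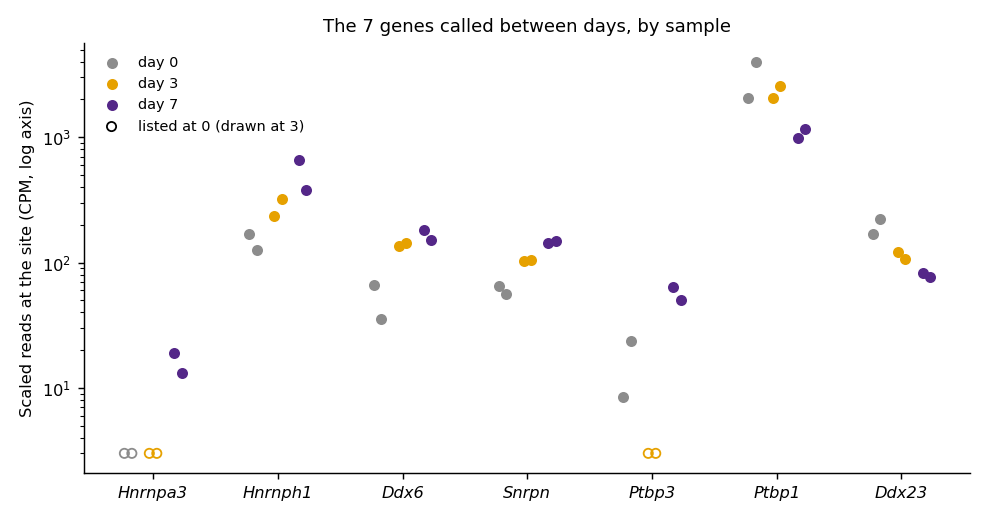
Scaled reads (CPM, log axis) at the most read site of the 7 member genes called between days, 1 point per sample, coloured by day. Open circles are samples listed at 0, drawn at 3 CPM. Hnrnpa3, Hnrnph1, Ddx6, Snrpn and Ptbp3 are highest on day 7, and Ptbp1 and Ddx23 lowest.

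Other genes with many reads or many sites did not pass the test between days. Hnrnpa2b1 had 4785 and 3947 CPM on day 0, 4308 and 5567 on day 3, then 7126 and 5280 on day 7. Dhx9 had 1085 and 935, then 1039 and 1568, then 1531 and 1185. In both genes day 7 lies above day 0 but overlaps day 3. Snrpd3 had 1092 and 1994, then 1348 and 1696, then 1249 and 1049, and Srrm2 597 and 1017, then 710 and 852, then 464 and 618. Ddx3x, an X-linked helicase of translation, ran from 283 to 594 CPM over the 6 samples, Rbm38 from 153 to 283 and Srsf9 from 143 to 236. Sf3b3, a subunit of the branch-site complex, ran from 83.4 to 182 and U2af2, which binds the polypyrimidine tract, from 15.9 to 36.2.

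The markers of cell state moved with the days. Summed over 5 of 10 listed stem cell markers with a site, CPM was 2949 and 2925 on day 0, 3240 and 3557 on day 3, then 1286 and 1458 on day 7, and for 7 of 11 differentiation markers it was 30.8 and 27.8, 426 and 335, and 8083 and 4109. Among the stem cell markers Lin28a went the other way, with 382 and 492 CPM on day 0 and 862.5 and 652 on day 7, while Pou5f1, Sox2, Esrrb and Tdgf1 were lower on day 7 than on day 0. H19 alone made up 398.5 and 269.5 CPM of the differentiation sum on day 3 and 6821 and 2814 on day 7, and T, Krt8, Krt18 and Sox11 were listed at 0 on days 0 and 3. Of 9 fibroblast markers 3 had a site, with 238 and 83.4, 245 and 167, and 357 and 380 CPM, and Col1a1 was listed at 0 on days 0 and 3. Day 7 lies outside the range of the earlier samples in each of these sums, that of the fibroblast markers included. The part of cell composition in the changes of member genes was not tested.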

How the data were processed

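The authors deposited, per the file headers, whole-number read counts per site (coverage and stops in K+ and in Li+) with gene, class, region, sequence and coordinates. These other values carry no normalisation. The tools were cutadapt, STAR and SAMtools and the builds GRCm38.p6 and mm10, per the submitters' processing notes. Versions, strand use and the handling of reads with several matches were not given in those sources. Motif coordinates in the tables count from 0 and are printed from 1, as inferred from the stop positions and motif ends. Members and lists were chosen with earlier results of these data known. All 66 symbols and 216 sites matched the RefSeq table of GRCm38.p6.

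Counts were fitted with limma-voom (limma 3.58.1, R 4.3.3) over all 6 samples in 1 fit, with trimmed-mean (TMM) scaling. A feature needed 10 counts, at the median library size, in 2 or more libraries and 15 overall. Log2 odds ratios (pseudocount 0.5) were weighted by counting plus between-sample variance. A call is a p under 0.05 after Benjamini-Hochberg adjustment over all features tested. Named genes are the most read of each family, members called, those with the smallest p, the top 10 in vitro and the genes with most sites; 1 item is not reported here. The fits were tested on simulated data. Replicates differed by more than sampling noise. Alternatives covered scaling, filters, minimum reads, pseudocount, weights, pairing of the cations, the replicate block and leaving out each sample.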

Additional observations from a re-analysis of the deposited data

Results flagged for a closer look

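The K+ against Li+ odds at the second Srrm2 motif differed between day 0 and day 3 by a test of the change itself, 3.55 on the log2 scale. The median log2 odds ratio of the 66 member sites lay below 0 in both day 0 samples (-0.10 and -0.30) and above 0 in both day 3 samples (1.19 and 0.14). The median of all 847 sites did the same (-0.16 and -0.50, then 1.31 and 0.33), so the pattern is not particular to the members. This difference between the days was not tested for either median.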

How the results depend on the processing

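On day 3 the 5 members called for K+ against Li+ became 2 of 27 with 50 reads per site (6.73% of all sites) and 9 of 66 with the replicate block (12.9% of all), and 0 with a pseudocount of 1, without weights, with unpaired cations or with samples centred on their median. The 1 member called in the change from day 0 to day 3 became 12 of 66 (18.2%) with the replicate block, beside 15.8% of all sites, and 0 with 50 reads, a pseudocount of 1, no weights or centring. The in vitro comparison gave 80 of 95 members with 50 reads (84.2%; 87.3% of all sites) and 17 of 136 when centred, where the median turned from 2.94 to -0.27. The median in vitro K+ share was 33.7% over sites with 100 reads, against 43.2%. For K+ stop counts, total counts alone called 1 member between days 0 and 3 and 3 between days 0 and 7. Fits without the filter called 3 of 198 between days 0 and 7 (3.06% of all sites) and 1 between days 3 and 7 (2.66% of all). The replicate block left 3 members called in reads between days 0 and 7, Ptbp1, Hnrnph1 and Hnrnpa3, beside 264 of 2389 entries (11.1%). Correlations between same-numbered samples ran from -0.17 to 0.25, below the level set for pairing in at least 1 pair of days, and the numbers were not taken to pair samples. Leaving out each sample gave 0 to 5, 0 to 19 and 0 to 6 members for reads (days 3 and 0, 7 and 0, 7 and 3), 0 to 8 for the odds on day 3 and 0 to 1 on day 7, and 0 to 5, 0 to 1 and 0 to 1 for their changes. The in vitro comparison kept 86 to 112 calls and a median of 2.74 to 3.43. Over the single members called, 99 alternatives kept the call, 69 lost it and 0 turned the direction. A sample left alone in its day was assumed to vary like the others. With 2 samples a day and listed values cut below 6 reads, small differences in cells were not detectable at this depth.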

Other observations

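Of 91 other genes of splicing and RNA unwinding, listed with earlier results known, 50 had a site and 48 were tested for reads. Between days 0 and 7 limma called 4 of them (8.33%) higher and 0 lower, where 18.4% of all entries were called, with a median of 0.20 on the log2 scale against 0.57 over all entries. Raly, an hnRNP relative, had 358 and 312 CPM on day 0 and 969 and 722 on day 7 (1.32 ± 0.27). Pcbp4, which binds runs of C, had 209 and 97.3 and then 635 and 602 CPM (1.98 ± 0.36). Luc7l, of the U1 snRNP, was listed at 0 on days 0 and 3 and had 10.4 and 12.5 CPM on day 7. A listed 0 can hide 10 reads, a mean of 13.4 CPM on day 0, so no rise of Luc7l is shown at this depth. Bclaf1 had 7.00 CPM and a listed 0 on day 0 and 31.1 and 11.03 on day 7 (3.84 ± 0.98), where the limit of the 0, 19.9 CPM, is above the lower day 7 value. Raly, Pcbp4 and Luc7l were also called between days 3 and 7.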
